A study of Mus musculus with 6 samples.

Results

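The genes described here encode steroid hormone receptors and related receptors, and they were measured in ovaries of 13.5 dpc mouse embryos. They were chosen by name as 9 genes, and all 9 were found among the 48709 genes of the count table by their Ensembl identifier. They are the oestrogen receptors Esr1 and Esr2, the progesterone receptor Pgr, the corticosteroid receptors Nr3c1 and Nr3c2, the lipid sensing receptors Ppara, Pparg and Ppard, and Gper1, which is grouped with them although its product sits in membranes. Pregnant wild type CD1 females received APAP at 30 mg/kg per day with IBU at 15 mg/kg per day, or ethanol as the control, by alternating gavages at 3 h intervals, 4 per day, from 10.5 to 13.5 dpc. Polyadenylated RNA was sequenced from 3 control pools and 3 APAP+IBU pools of gonads. The titles of the exposed samples name ibuprofen alone, while their exposure label names both drugs, and the exposure label was followed here. Each pool mixed gonads of several embryos, so values belong to pools and not to single embryos, and the drugs reached the ovaries through the dam. The comparison asks which receptor transcripts differ in the fetal ovary after exposure.

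Steroid receptors are proteins that bind a hormone, move to or stay in the nucleus and switch genes on or off at short DNA elements. NR3C1 binds glucocorticoids, NR3C2 binds aldosterone and glucocorticoids, ESR1 and ESR2 bind oestradiol, and PGR binds progesterone and is itself a classic target of oestrogen. The PPAR proteins bind fatty acids and related lipids, pair with RXR proteins and control fat oxidation and storage, and some nonsteroidal anti-inflammatory drugs, ibuprofen among them, can bind PPARs. GPER1 is a G protein coupled receptor described as a rapid oestrogen sensor. In the adult ovary, ESR2 and PGR act in granulosa cells, whereas the fetal mouse ovary makes little oestrogen.

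The total count per library ran from 37811968 to 48954631, and all 9 genes were among the 20167 genes that passed the expression filter. Germ cell genes such as Ddx4 (191 to 268 CPM) and somatic ovarian genes such as Wt1 (251 to 301 CPM) were found in every library, while Foxl2, a granulosa cell gene, was at 0.944 to 8.16 CPM. CPM is the TMM normalised count scaled to library size, as edgeR defines it. Replicate 3 of each group stood apart by its liver RNA. The 16 liver genes examined reached a sum of 2110 CPM in the control library and 3403 CPM in the exposed one, where the remaining 4 libraries had sums from 191 to 570 CPM, and none of the 16 was at 0 anywhere. Libraries also differed in how well long and GC-poor transcripts were represented. Among tested genes with at least 5952 exonic bases, the median log2 deviation from the mean of all libraries was -0.20 and -0.11 in control replicates 1 and 2, 0.13 in control replicate 3, and 0.11, 0.11 and -0.016 in APAP+IBU replicates 1, 2 and 3. Spermatid transcripts such as Prm1 were higher in the controls (5.71 to 35.9 CPM) than after exposure (0.197 to 0.789 CPM). Because of the liver RNA, calls of receptors and of pathway lists were also made from replicates 1 and 2 of each group alone. Because of the length and GC differences, they were also made after correction of each library for transcript length and GC content. The spermatid difference stayed in both. The median log2 fold change of 10 spermatid genes was -4.25 in replicates 1 and 2 and -3.66 after the correction of all 6 libraries.

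Upstream sequences were taken from RefSeq (GRCm38.p6), which matched 8 of the 9 genes with 11 start sites, since Esr1 has 2 and Pparg has 3; Nr3c1 had no entry. The 250 bases before each start were searched on both strands. Some of these windows overlap annotated exons, which cover 193 bases for the first Pparg start, 150 for Ppara and all 250 for the first Esr1 start. GC content differed widely among the windows. It was 69.6% for Ppard, 76.4% for Ppara, 68.4% for Nr3c2 and 82.4% for the first Pparg start, against a median of 52.4% over 32851 windows, and 43.6% for Pgr and 44.0% for Gper1. The GGGCGG box bound by Sp1-type factors was in 6 of the 11 windows (32.7% of all windows), and the TATAAA box was in 3, those of Gper1, Pgr and one Pparg start (12.4% of all windows). None of the 11 windows held a full oestrogen response palindrome (0.0639% of all windows), a full glucocorticoid response palindrome (0.387%) or the PPAR direct repeat (0.0335%). The shorter element AGGTCA, which is contained in that direct repeat and bound by many nuclear receptors, was in 2 windows, both of Pparg (14% of all windows). The 3 stretches printed hold no annotated exon, and they belong to the 2 receptors with the lowest levels and to Ppard as a GC-rich contrast. Capitals mark the Sp1 box, the TATA box and the AGGTCA element on either strand.
Pgr at chr9:8899583-8899832, plus strand, GRCm38: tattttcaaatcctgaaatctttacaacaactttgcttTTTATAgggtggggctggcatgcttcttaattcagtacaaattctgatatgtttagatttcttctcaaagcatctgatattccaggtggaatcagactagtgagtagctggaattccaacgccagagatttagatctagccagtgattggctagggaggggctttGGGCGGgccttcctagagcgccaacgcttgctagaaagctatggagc
Esr2 at chr12:76177260-76177509, minus strand, GRCm38: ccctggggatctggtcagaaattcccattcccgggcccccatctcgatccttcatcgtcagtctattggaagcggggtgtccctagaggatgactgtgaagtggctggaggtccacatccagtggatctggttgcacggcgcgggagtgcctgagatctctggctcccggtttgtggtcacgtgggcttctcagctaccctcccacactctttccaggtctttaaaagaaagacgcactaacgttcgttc
Ppard at chr17:28232504-28232699, plus strand, GRCm38: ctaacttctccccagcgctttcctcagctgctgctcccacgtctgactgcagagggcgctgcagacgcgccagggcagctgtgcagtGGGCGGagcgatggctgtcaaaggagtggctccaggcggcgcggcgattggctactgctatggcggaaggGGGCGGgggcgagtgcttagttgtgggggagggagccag
The Pgr stretch thus has a TATAAA and a GGGCGG match, the Ppard stretch has 2 GGGCGG matches, and the Esr2 stretch has none of the marked motifs. Counts are summed per gene, so the 3 Pparg starts and the 2 Esr1 starts cannot be told apart by level.

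Levels of different genes were compared per kilobase of annotated exon. Nr3c1 was the most abundant receptor with 11.7 ± 2.08 CPM per kilobase (SD, n = 6 libraries of both groups), above 69.4% of 16141 tested protein-coding genes. It was followed by Ppard (2.98 ± 0.448), Pparg (2.38 ± 0.781), Ppara (1.82 ± 0.635) and Esr1 (1.57 ± 0.308), all in CPM per kilobase. Gper1 (0.584 ± 0.218), Nr3c2 (0.582 ± 0.0917), Pgr (0.463 ± 0.0772) and Esr2 (0.393 ± 0.165) were lowest, with Esr2 above only 12.9% of protein-coding genes. Nr3c1 exceeded Ppard, and Esr1 exceeded Gper1, in 6 of 6 libraries. Ppard exceeded Pparg in 5 of 6 libraries, while Pparg and Ppara, Ppara and Esr1, Gper1 and Nr3c2, and Pgr and Esr2 each changed places in at least 2 libraries. Ppara exceeded Pparg only in the replicate 3 libraries, where the ratio of Pparg to Ppara was 0.821 in the control and 0.610 after exposure. Whether these neighbours differ in level was not tested. With all exons, some of these places differed between the group means, which was not tested. In controls the mean of Esr1 (1.49) was above that of Ppara (1.38) and the mean of Gper1 (0.685) above that of Nr3c2 (0.561), in CPM per kilobase, and after exposure both orders were the opposite (1.65 against 2.26, and 0.483 against 0.603). Nr3c2 exceeded Pgr in 6 of 6 libraries with all exons, but in 3 of 6 when the longest transcript was used as the length. With that length Esr1 moved from the fifth to the third place, because its annotated exons span 13661 bases against 6339 in its longest transcript. Its mean was then above that of Ppara both in controls (3.20 against 1.55) and after exposure (3.56 against 2.55).

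**Figure D1:**
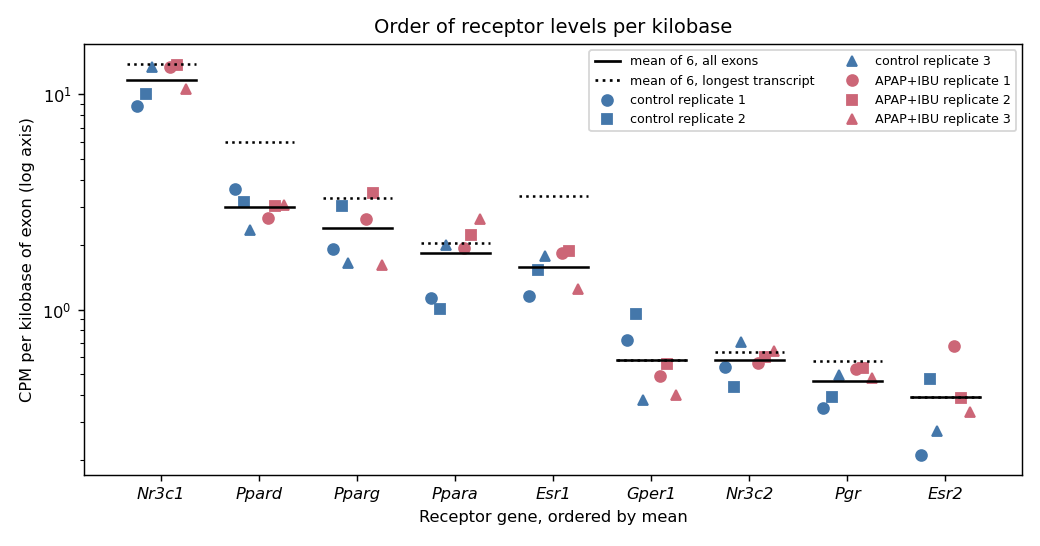
Level of each receptor gene in CPM per kilobase of exon (log axis) in the 6 libraries, with colours for group and marker shapes for replicate. Solid lines are means over 6 libraries with all exons and dotted lines with the longest transcript; Nr3c1 lies above all others in every library, and Esr1 and Ppard shift most with the choice of length.

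With all 6 libraries, edgeR's quasi-likelihood test called none of the 9 receptor genes at a Benjamini-Hochberg adjusted p under 0.05 between exposed and control ovaries, and it called 0% of the 20167 tested genes. Ppara was the one receptor with an unadjusted p under 0.05, and it was higher after exposure; 6.22% of all tested genes had such a p, 3% as higher genes. DESeq2 without shrinkage called 192 genes at an adjusted p under 0.05 (0.952% of tested genes), none of them a receptor, and Ppara was again the one receptor with an unadjusted p under 0.05, where 7.64% of all genes had one. No receptor gene had groups that did not overlap, against 10.7% of all tested genes. Over the receptors, 7 of 9 fitted log2 fold changes were positive and their median was 0.22, against -0.0047 over all tested genes. With the length and GC correction 6 of 9 were positive and the median was 0.046, against -0.014 over all tested genes. Exact two-sided permutation tests gave p from 0.2, for Pgr and Ppara, to 0.8, for Pparg and Ppard, and 3 libraries against 3 cannot go below 0.1. In whole gonads, fewer cells of a type and less RNA per cell cannot be told apart in any of these values.

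**Figure D2:**
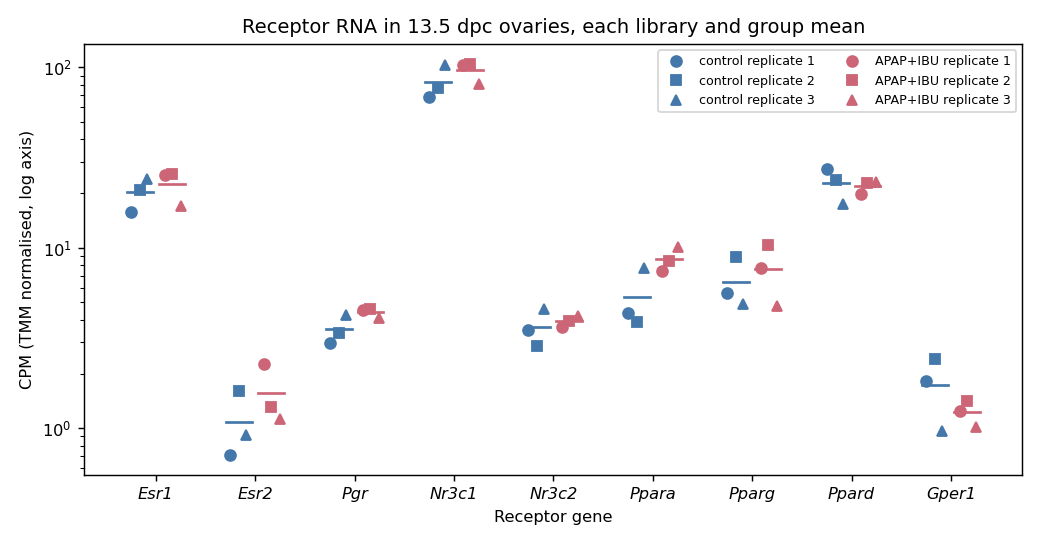
CPM of each receptor gene on a log axis in each library, with horizontal bars for the mean of the 3 libraries of a group. The control and exposed points of every gene overlap. For Ppara and Pgr only control replicate 3 reaches the exposed range, which runs from 7.41 to 10.2 CPM for Ppara and from 4.09 to 4.59 CPM for Pgr.

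Esr1 (ENSMUSG00000019768, chromosome 10 of GRCm38, 4611593 to 5005614), the main nuclear oestrogen receptor of the reproductive tract, was at 15.9, 20.9 and 24.2 CPM in control replicates 1, 2 and 3 and at 25.1, 25.5 and 17.1 CPM in APAP+IBU replicates 1, 2 and 3. The lowest control and the lowest exposed library were close to each other, and control replicate 3 was near the 2 highest exposed libraries. Control libraries averaged 20.3 ± 4.19 CPM and exposed libraries 22.6 ± 4.78 CPM (SD, n = 3 each), a log2 fold change of 0.15 (SE 0.22, adjusted p = 0.815 in edgeR's test). The 95% interval of the fold ran from 0.780 to 1.59. Esr1 is longer than 97.1% of tested genes, and with the length and GC correction its log2 fold change was -0.08 (SE 0.14). Esr1 was higher in both exposed libraries when only replicates 1 and 2 were used, with a log2 fold change of 0.49 (adjusted p = 0.0585 in edgeR's test, and 0.036 in DESeq2, which called 28.1% of tested genes there), and after the correction it was 0.0012 (SE 0.13).

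Esr2 (ENSMUSG00000021055, chromosome 12, 76120419 to 76177259), the oestrogen receptor that adult granulosa cells use, was at 0.708, 1.61 and 0.921 CPM in controls and at 2.27, 1.31 and 1.12 CPM after exposure. These values rest on 27 to 115 counts per library. The exposed libraries had the higher mean, but control replicate 2 lay above 2 of them. The 95% Poisson interval of control replicate 1 was 0.467 to 1.03 CPM and that of APAP+IBU replicate 1 was 1.87 to 2.72 CPM, so these libraries differed beyond counting error, which is all that such intervals cover. Esr2 had a log2 fold change of 0.54 (SE 0.42, adjusted p = 0.708 in edgeR's test), and the 95% interval of the fold ran from 0.746 to 2.84. From replicates 1 and 2 alone it was 0.65 (SE 0.48, adjusted p = 0.342), and leaving out single libraries moved it from 0.17, without APAP+IBU replicate 1, to 0.94, without control replicate 2.

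Gper1 (ENSMUSG00000053647, chromosome 5, 139423151 to 139427800) was at 1.84, 2.41 and 0.967 CPM in controls and at 1.24, 1.42 and 1.02 CPM after exposure. Control replicates 1 and 2 were above all exposed libraries and control replicate 3 was below them. Gper1 had a log2 fold change of -0.50 (SE 0.38, adjusted p = 0.703 in edgeR's test), the most negative among the receptors, with a fold between 0.388 and 1.29. With the length and GC correction it was -0.29 (SE 0.33). Leaving out single libraries moved it from -0.79, without control replicate 3, to -0.19, without control replicate 2. Gper1 has a higher GC content than 85.3% of tested genes, in contrast to the other 8 receptors, which were at or below 65% on that scale.

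Pgr (ENSMUSG00000031870, chromosome 9, 8899833 to 8968611), the progesterone receptor, was at 2.96, 3.35 and 4.26 CPM in controls and at 4.51, 4.59 and 4.09 CPM after exposure. Only control replicate 3 reached the exposed range, where it lay above APAP+IBU replicate 3. The spread was smaller after exposure (SD 0.27 CPM, n = 3) than in controls (SD 0.666 CPM, n = 3), which was not tested. The log2 fold change was 0.32 (SE 0.23, adjusted p = 0.7 in edgeR's test), with a fold between 0.869 and 1.79. From replicates 1 and 2 alone it was 0.55 (adjusted p = 0.114), and 0.24 (adjusted p = 0.51) after the length and GC correction.

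Nr3c1 (ENSMUSG00000024431, chromosome 18, 39410545 to 39519421), the glucocorticoid receptor, was at 68.2, 77.1 and 103 CPM in controls and at 103, 105 and 81.3 CPM after exposure. Control replicate 3 matched the 2 higher exposed libraries, and APAP+IBU replicate 3 was close to control replicate 2. Over all 6 libraries the log2 fold change was 0.22 (SE 0.18, adjusted p = 0.722 in edgeR's test), with a fold between 0.868 and 1.55. Nr3c1 was called higher in replicates 1 and 2 alone, with a log2 fold change of 0.53 (SE 0.10, adjusted p = 0.0105), where 27.2% of 20633 tested genes were called. After the length and GC correction of the same 4 libraries the log2 fold change was 0.099 (SE 0.09, adjusted p = 0.5), and over all 6 libraries it was 0.018 (SE 0.089). Nr3c1 is longer than 85% of tested genes and has a GC content above only 14.1% of them.

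Nr3c2 (ENSMUSG00000031618, chromosome 8, 76899442 to 77245012), the mineralocorticoid receptor, was at 3.49, 2.84 and 4.56 CPM in controls and at 3.65, 3.91 and 4.16 CPM after exposure. The exposed libraries all lay between the lowest and the highest control. For Nr3c2 the log2 fold change was 0.10 (SE 0.24, adjusted p = 0.888 in edgeR's test), with a fold between 0.728 and 1.59, and from replicates 1 and 2 alone it was 0.28 (SE 0.24). Of its exonic bases, 247 (3.82%) are shared with the antisense noncoding gene Gm10649, and the strand setting of the counting is not given in the sources used here. Per kilobase, Nr3c1 exceeded Nr3c2 between 16.4-fold and 23.7-fold in the 6 libraries. This ratio was 19.5 ± 3.24 (SD, n = 3) in controls and 20.9 ± 3.91 (SD, n = 3) after exposure, a difference smaller than the spread within a group.

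Ppara (ENSMUSG00000022383, chromosome 15, 85734983 to 85802819), which drives genes of fatty acid oxidation and is abundant in liver, was at 4.35, 3.86 and 7.69 CPM in controls and at 7.41, 8.49 and 10.2 CPM after exposure. Control replicates 1 and 2 were well below all exposed libraries, and control replicate 3 was above APAP+IBU replicate 1. Ppara averaged 5.30 ± 2.09 CPM in controls and 8.69 ± 1.38 CPM after exposure (SD, n = 3 each). The log2 fold change was 0.71 (SE 0.30, unadjusted p = 0.0427, adjusted p = 0.692 in edgeR's test), with a fold between 1.02 and 2.62, so the difference did not pass the adjusted threshold. Across the 18 alternatives tried the log2 fold change stayed positive, from 0.53 to 1.08, and the adjusted p ran from 0.00189 to 0.999. Without control replicate 3 Ppara was called (log2 fold change 1.08, adjusted p = 0.0441), where 5.16% of 20634 tested genes were called, and in replicates 1 and 2 alone it was called as well (0.97, adjusted p = 0.0152), where 27.2% of tested genes were called. With the length and GC correction the value in those 4 libraries was 1.04 (adjusted p = 0.0177, with 13.9% of tested genes called).

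Ppara was set beside the liver genes because liver expresses it strongly. The 16 liver genes ranged from 268 to 2110 CPM in summed level in controls and from 191 to 3403 CPM after exposure, with none at 0. Within each group Ppara was highest in replicate 3, the library with the most liver RNA. Among the replicate 1 and 2 libraries, APAP+IBU replicate 1 had the lowest liver level of all (191 CPM) and 7.41 CPM of Ppara, and control replicate 2 had a liver level of 570 CPM and 3.86 CPM of Ppara. Within the replicate 3 libraries Ppara was at 7.69 CPM in the control and at 10.2 CPM after exposure, at liver levels of 2110 and 3403 CPM. Of the 16 liver genes, 14 had positive estimates over 6 libraries, with a median log2 fold change of 0.58 against -0.0047 over all tested genes, and 0 had an unadjusted p under 0.05. From replicates 1 and 2 alone 8 of the 16 were positive, with a median of -0.030. The part of liver RNA in the Ppara values was not tested.

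**Figure D3:**
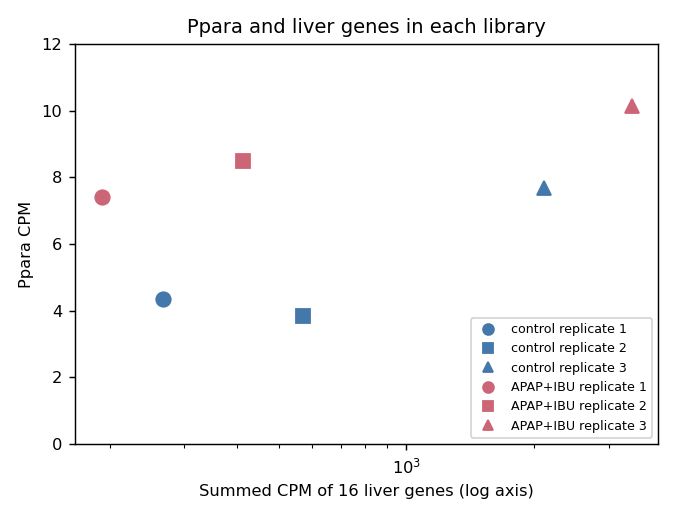
Ppara level in CPM against the summed CPM of 16 liver genes (log axis), one point per library. The replicate 3 libraries lie to the right at 2110 and 3403 CPM of liver genes, and among the libraries to the left both exposed ones lie above both controls.

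Pparg (ENSMUSG00000000440, chromosome 6, 115360951 to 115490399), the receptor of fat storage, was at 5.64, 8.92 and 4.86 CPM in controls and at 7.75, 10.3 and 4.76 CPM after exposure. The replicate 3 libraries were the lowest of their groups and nearly equal. The log2 fold change was 0.23 (SE 0.34, adjusted p = 0.815 in edgeR's test), with a fold between 0.685 and 2.02. From replicates 1 and 2 alone it was 0.33 (SE 0.26), and 0.41 (SE 0.25) after the length and GC correction. Ppard (ENSMUSG00000002250, chromosome 17, 28232700 to 28301474), the PPAR with the broadest expression, was at 27.4, 23.7 and 17.6 CPM in controls and at 19.9, 22.8 and 23.1 CPM after exposure. All exposed values of Ppard fell within the control range. Its log2 fold change was -0.06 (SE 0.19, adjusted p = 0.919 in edgeR's test), with a fold between 0.709 and 1.30, and from replicates 1 and 2 alone it was -0.24 (SE 0.13). After the length and GC correction of these 4 libraries it was -0.33 (SE 0.13, adjusted p = 0.129 in edgeR's test). The level of Ppard per kilobase was 3.21, 3.14 and 1.16 times that of Ppara in the controls and 1.37, 1.37 and 1.16 times after exposure. This ratio, which no library scaling can move, was high in control replicates 1 and 2 and alike in the other 4 libraries.

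In replicates 1 and 2 alone, 2 of the 9 receptors, Nr3c1 and Ppara, were called higher and 0 were called lower, against 14.2% and 12.9% of all tested genes. Of the 9, 7 had groups that did not overlap in these 4 libraries, against 69% of all tested genes, so that share of the receptors was near the background. After the length and GC correction of these 4 libraries Ppara remained called and Nr3c1 did not, where 5.68% of tested genes were called higher. Here the length and GC differences ran along with group. Genes with at least 5952 exonic bases had median log2 deviations of -0.20 and -0.11 in controls and 0.11 and 0.11 after exposure. Genes with at most 44.7% GC had -0.27 and -0.15 against 0.19 and 0.12. The correction can therefore also remove an effect of exposure on long or GC-poor genes, and its part was not tested. The correction of all 6 libraries brought the log2 fold changes of Esr1, Nr3c1 and Nr3c2 to between -0.08 and 0.046 and left that of Ppara at 0.73 (SE 0.28, adjusted p = 0.527 in edgeR's test) and that of Esr2 at 0.60 (SE 0.41).

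**Figure D4:**
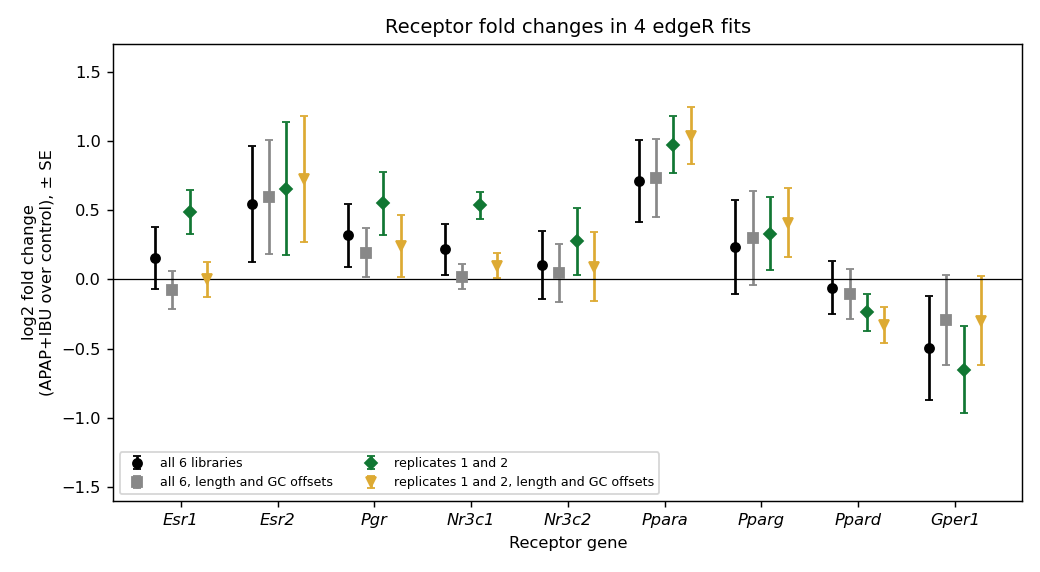
Fitted log2 fold change of APAP+IBU over control for each receptor gene in 4 edgeR fits, with bars for the standard error. For Esr1, Nr3c1 and Pgr the estimate from replicates 1 and 2 (0.49, 0.53 and 0.55) moves toward 0 with the length and GC correction, while that of Ppara stays near 1 in both fits. For Esr2, Pparg and Ppard it moves away from 0, from 0.65 to 0.72, from 0.33 to 0.41 and from -0.24 to -0.33.

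The receptors act with chaperones that hold them ready for hormone, with RXR partners and with coregulators. None of 11 chaperone and partner genes passed an adjusted p under 0.05 over 6 libraries, 1 had an unadjusted p under 0.05, and all 11 estimates were negative (median log2 fold change -0.23, against -0.0047 over all genes). With the length and GC correction of all 6 libraries the median was -0.15, against -0.014 over all tested genes, and 2 of 11 estimates were positive. Hspa8, a constitutive chaperone, was at 1132, 1150 and 780 CPM in controls and at 626, 707 and 876 CPM after exposure (log2 fold change -0.47, unadjusted p = 0.0475, adjusted p = 0.692). Hsp90ab1, which holds steroid receptors in a hormone-binding state, had a log2 fold change of -0.31 (SE 0.16), Fkbp4, a cochaperone of the same complex, one of -0.41 (SE 0.21), and Stip1, which links HSP70 to HSP90, one of -0.23 (SE 0.15). Among 12 coactivators and corepressors the median was 0.28 and 12 estimates were positive. With the length and GC correction of all 6 libraries the median was 0.17 and 11 were positive. Without the correction none passed the adjusted threshold and 2 had an unadjusted p under 0.05. These were the histone acetyltransferase gene Ep300, at 105, 104 and 171 CPM in controls and 176, 204 and 174 CPM after exposure (log2 fold change 0.55, unadjusted p = 0.0302), and the corepressor gene Lcor, at 5.43, 7.68 and 16.7 CPM against 21.7, 20.2 and 15.9 CPM (log2 fold change 0.95, unadjusted p = 0.0381). Control replicate 3 was near the exposed libraries for both, as it was for Nr3c1. For Ep300 and Hsp90ab1 the groups did not overlap, as in 10.7% of all tested genes. Ncor1, the corepressor of unliganded nuclear receptors, had a log2 fold change of 0.33 (SE 0.18) and the coactivator gene Ncoa3 one of 0.30 (SE 0.17). In replicates 1 and 2 alone, 5 of the 11 chaperone and partner genes were called lower and 8 of the 12 coregulators were called higher, where 12.9% and 14.2% of all tested genes were called in these directions. After the length and GC correction of these 4 libraries, 3 of the 11 were called lower and 2 of the 12 were called higher, where 8.23% and 5.68% of all tested genes were called. These lists and those below were chosen with earlier results of these data known. Their counts beside the shares of all genes are therefore a description and not a test.

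Genes known to respond to the receptors were read as lists. Of 10 glucocorticoid and mineralocorticoid responsive genes, 0 passed an adjusted or an unadjusted p under 0.05 over 6 libraries, and the median log2 fold change was -0.053. Klf9, a transcription factor gene induced by glucocorticoids, was at 4.51, 4.61 and 5.37 CPM in controls and 6.98, 6.49 and 6.04 CPM after exposure, so its groups did not overlap (log2 fold change 0.43, unadjusted p = 0.0557, adjusted p = 0.692). The groups did not overlap for 10.7% of all tested genes. Cdkn1c, a cell cycle inhibitor gene, had a log2 fold change of -0.52 (SE 0.31), the feedback regulator gene Errfi1 one of 0.14 (SE 0.13), and the sodium channel gene Scnn1a one of -0.21 (SE 0.20). From replicates 1 and 2 alone, 1 of the 10 was called higher and 2 were called lower, shares near the 14.2% and 12.9% of all tested genes, and after the length and GC correction 0 were called. Among genes that supply or remove glucocorticoid, Hsd11b2, whose enzyme inactivates it, had a log2 fold change of -0.28 (SE 0.20, adjusted p = 0.699). H6pd, which feeds the activating enzyme with cofactor, had a log2 fold change of 0.054 (SE 0.12), and Hsd11b1, the activating enzyme, was at 0.157 to 0.39 CPM. Serpina6, the corticosteroid carrier of plasma and a liver product, was at 203 and 246 CPM in the replicate 3 libraries and at 6.05 to 26.3 CPM in the others. None of these 4 genes passed an unadjusted p under 0.05 over 6 libraries. Hsd11b2 was called lower from replicates 1 and 2 alone (log2 fold change -0.54, adjusted p = 0.0316), where 12.9% of all tested genes were called lower. None of the 4 was called there after the length and GC correction.

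Of 18 fatty acid genes that respond to PPARs, 0 passed an adjusted or an unadjusted p under 0.05 over 6 libraries, 7 estimates were positive and the median was -0.053. The fatty acid binding protein gene Fabp3 was at 8.60, 8.06 and 4.01 CPM in controls and 4.65, 4.26 and 4.66 CPM after exposure (log2 fold change -0.61, adjusted p = 0.692). The lipase gene Lpl was at 36.7, 44.6 and 49.5 CPM in controls and 51.2, 53.7 and 52.3 CPM after exposure, without overlap, as in 10.7% of all tested genes (log2 fold change 0.26, adjusted p = 0.692). The lipid droplet gene Plin2 had a log2 fold change of -0.26 (SE 0.17) and Fabp4, a fat cell binding protein gene, one of -0.44 (SE 0.31). With replicates 1 and 2 only, 1 of the 18 was called higher and 2 were called lower, against 14.2% and 12.9% of all tested genes. After the length and GC correction 0 were called higher and 2 lower, against 5.68% and 8.23% of all tested genes.

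Of 12 genes that respond to oestrogen or progesterone, 11 were tested and none passed an adjusted p under 0.05. Greb1, an early oestrogen target and cofactor of ESR1, was at 37.0, 39.3 and 54.7 CPM in controls and at 69.7, 73.4 and 58.1 CPM after exposure. All exposed libraries lay above all controls (log2 fold change 0.62, SE 0.18, unadjusted p = 0.00884, adjusted p = 0.643 in edgeR's test). Ccnd1, a cyclin gene of cell cycle entry, was at 120, 109 and 95.1 CPM in controls and at 84.7, 78.1 and 88.1 CPM after exposure, again without overlap (log2 fold change -0.37, SE 0.13, unadjusted p = 0.0204, adjusted p = 0.692). The groups did not overlap for 10.7% of all tested genes. The chemokine gene Cxcl12, also without overlap, had a log2 fold change of -0.33 (SE 0.15), and Igfbp4, which binds insulin-like growth factors, one of -0.43 (SE 0.21). The median of the list was -0.30 and 2 of 11 estimates were positive. With the length and GC correction of all 6 libraries the median was -0.13 and 3 of 11 were positive. With replicates 1 and 2 only, 1 was called higher and 4 were called lower, against 14.2% and 12.9% of all tested genes. After the length and GC correction 1 was called higher and 2 lower, against 5.68% and 8.23% of all tested genes. Among 8 membrane and other non-classical steroid binding proteins none passed an adjusted or unadjusted p under 0.05. The lowest unadjusted p there was that of Pgrmc2 (log2 fold change -0.26, SE 0.12), whose groups did not overlap, followed by Nenf (-0.55, SE 0.34), Pgrmc1 (-0.14, SE 0.15) and Paqr6 (-0.38). In replicates 1 and 2 the neurotrophic factor gene Nenf alone was called, as lower (-0.96, adjusted p = 0.00623), where 12.9% of all tested genes were called lower. After the length and GC correction none was called.

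**Figure D5:**
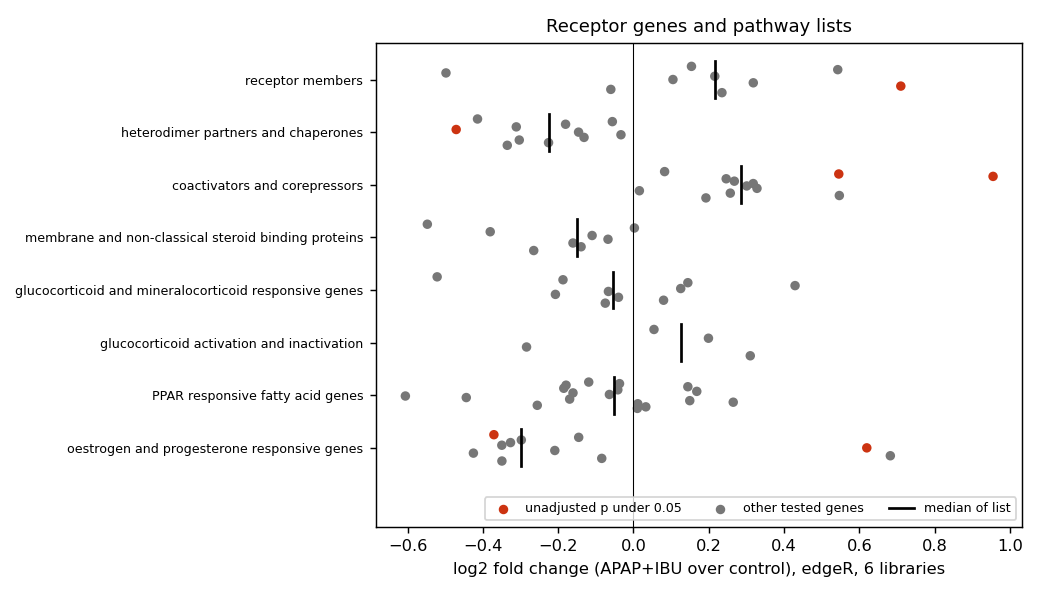
Fitted log2 fold change of APAP+IBU over control over 6 libraries for the receptor genes and 7 pathway lists, with one point per tested gene, red for an unadjusted p under 0.05 and a vertical bar for the median of each list. The medians run from -0.30 in the oestrogen and progesterone responsive genes to 0.28 in the coregulators, and no point passed an adjusted p under 0.05. With the length and GC correction, which is not drawn, these 2 medians were -0.13 and 0.17.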

How the data were processed

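Per the labels and the methods, ovary RNA of 3 control and 3 APAP+IBU pools was made into stranded polyadenylated libraries, mapped to mm10 with TopHat2 2.0.14 and Bowtie2 2.1.0 and counted per gene of Ensembl release 86 with HTSeq 0.6.1. The authors deposited raw counts without normalisation. In edgeR 4.0.16 under R 4.3.3, counts were filtered by expression, scaled by TMM and tested by quasi-likelihood, with Benjamini-Hochberg adjustment over all 20167 tested genes. Standard errors and 95% intervals come from the F statistic. DESeq2 1.42.0 without shrinkage was an alternative. The length and GC correction used loess offsets per library (span 0.3) for the 20103 tested genes with both values in GENCODE M21 (GRCm38, the assembly of mm10), which also gave names and positions. Log2 CPM used a prior count of 1. The tests were checked on simulated counts. The receptor genes and all lists were chosen with earlier results of these data known. The 4 genes with the smallest unadjusted p were named from each pathway list. Other alternatives were scaling, count filters, the replicate number as a block and leaving out each library. Libraries of one group differed by a chi-square of 17.2 to 143 per degree of freedom, so none was counted as a duplicate.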

Additional observations from a re-analysis of the deposited data

How the results depend on the processing

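At an adjusted p under 0.05, the 0 genes (1254 at an unadjusted p under 0.05) and 0 receptors of edgeR's test on 6 libraries became 192 genes and 0 receptors with DESeq2, 120 and 0 with all genes of at least 1 count, 2 and 0 with the replicate block, and 34 and 0 when that block was joined to the correction for length and GC. Leaving out one library gave 0 to 1064 genes and 0 to 1 receptors, with both maxima when control replicate 3 was absent. Restricting to replicates 1 and 2 gave 5607 genes and 2 receptors, 2870 and 1 with the length and GC correction, and 5801 and 3 with DESeq2. Other scalings, a minimum of 10 counts and the length and GC correction alone left both numbers at 0. The log2 fold change of Esr1 turned to -0.080 with the length and GC correction and to -0.087 with the replicate block added, Nr3c2 to -0.044 without control replicate 2 (range over left-out libraries -0.044 to 0.30), Pparg to -0.058 without APAP+IBU replicate 2 (-0.058 to 0.54) and Ppard to 0.088 without control replicate 1 (-0.22 to 0.088). The signs of Esr2, Pgr, Nr3c1, Ppara and Gper1 held under all 18 alternatives, which reuse the same libraries. The sizes for Esr2 (0.17 to 0.94), Gper1 (-0.79 to -0.19) and Nr3c1 (0.092 to 0.41) moved several-fold with single libraries left out. Nr3c1 was at 0.016 (SE 0.12) when the replicate block was joined to the length and GC correction. The use of the longest transcript as length was chosen after seeing the data. The cause of these shifts was not tested. The labels do not say whether same-numbered libraries came from one experiment, and the data did not pair them, with correlations of deviations of -0.069, -0.015 and -0.044, and 0 libraries correlated best with their own number. Depth limited Esr2 and Gper1 most, with 27 to 115 and 39 to 90 counts per library.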

Other observations

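Over the 6 libraries, each receptor was set beside all 16140 other tested protein-coding genes by Pearson's r of log2 CPM, as a description of libraries that share depth and composition. The profile of Nr3c1 was nearest to that of Sesn3 and Atl3 (both r = 0.998), and 800 genes exceeded r = 0.95 with it. Pgr was nearest to Dmd (0.999) and Kmt2e (0.998), with 931 genes above 0.95, and Ppard to Nfkbib (0.998) and Gna12 (0.997), with 600. Far fewer genes followed the others. Esr1 was nearest to Slc4a10 (0.997) and Pofut1 (0.993), Pparg to Ncoa5 and Mecr (both 0.992), Gper1 to Rhox8 (0.992) and Snx1 (0.990), Nr3c2 to Pkdrej (0.994) and Serpina3n (0.992), Ppara to Elk1 (0.984) and Ccdc170 (0.982), and Esr2 to Fgf7 (0.986) and Nrbp2 (0.980), with 18 to 111 genes above 0.95. Among the receptors themselves, r was highest for Pgr with Nr3c1 (0.933) and Esr1 with Nr3c1 (0.917) and lowest for Nr3c2 with Gper1 (-0.944).

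Marker genes of other cell types were summed in each library. Adrenal cortex genes, whose tissue lies beside the gonad, summed to 22.4 to 36.8 CPM in controls and 23.2 to 25.1 CPM after exposure over 8 genes, and Cyp11b2 was at 0 in all libraries. Of the 6 tested adrenal genes, 2 were lower at an unadjusted p under 0.05 in edgeR's test on 6 libraries. Among all tested genes 3.21% were. The median log2 fold change of the 6 was -0.50, 1 estimate was positive and 0 passed an adjusted p under 0.05. Macrophage genes summed to 68.3 to 82.2 CPM in controls and 51.7 to 75.6 CPM after exposure, endothelial genes to 435 to 503 and 380 to 426 CPM, and stromal genes to 1181 to 1739 and 1081 to 1272 CPM. Ovarian supporting cell genes summed to 937 to 1325 and 1070 to 1195 CPM, germ cell genes to 1380 to 1532 and 1343 to 1712 CPM, surface epithelium genes to 488 to 653 and 486 to 538 CPM, mesonephric genes to 199 to 233 and 195 to 209 CPM, erythroid genes to 7026 to 17124 and 3179 to 10179 CPM, spermatid genes to 164 to 275 and 118 to 141 CPM and fetal testis genes to 24.7 to 42.2 and 19.2 to 25.1 CPM. In replicates 1 and 2 alone, 3 of the 8 germ cell genes were called higher and 3 lower, against 14.2% and 12.9% of all tested genes. After the length and GC correction 0 were called higher and 1 lower, against 5.68% and 8.23%. Opposite changes of this kind do not show in the germ cell sum. The spermatid sum includes Odf2, at 12.8 CPM per kilobase in controls and 12.5 after exposure. Of the 10 spermatid genes, 9 were lower at an unadjusted p under 0.05 in edgeR's test on 6 libraries, against 3.21% of all tested genes. Their list had a median log2 fold change of -4.10, and 0 passed an adjusted p under 0.05. The part of any of these cell types in the receptor values was not tested.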
